A study of Oryza sativa Indica Group with 6 samples.

Results

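The genes described here act in the synthesis and signalling of brassinosteroids in rice. The set was defined by 7 names, 3 of signalling (*BRI1*, *BAK1* and *BZR1*) and 4 of synthesis (*CYP90D2*, *CYP85A1*, *CYP724B1* and *CYP90B2*). A gene was taken where a probe set of the array is annotated to that name or to a synonym, and where a gene had several, the probe set with the highest mean signal was used. Of the 7 names, 5 had a probe set, each of them exactly 1, out of 17905 genes with a probe set and 57258 probe sets in all. *CYP90D2* and *CYP90B2* have an entry in the reference but no annotated probe set, and they were not analysed here.

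Brassinosteroids are plant steroid hormones that promote cell elongation and division, and rice mutants that cannot make or sense them are dwarfs with erect leaves. The hormone is built from plant sterols, with cytochrome P450 enzymes at several oxidation steps, and is perceived at the cell surface by the receptor kinase BRI1 together with its co-receptor BAK1. The signal then inactivates GSK3-like kinases, which frees BZR1-type transcription factors to act on their target genes. In rice and other plants, active signalling lowers the transcription of synthesis genes.

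The plants were seedlings of *Oryza sativa* ssp. *indica* cultivar 3037, either the wild type or the spontaneous recessive semi-dwarf mutant *sd37*. This mutant carries 1 base change in the coding sequence of *CYP96B4*, a cytochrome P450 gene, which exchanges 1 amino acid of the protein. All were 2 weeks old and grew in a phytotron with 16 h of light at 26°C and 8 h of dark at 18°C, with no hormone treatment named. Each genotype has 3 arrays of the Affymetrix Rice Genome Array, labelled as biological replicates 1 to 3, and neither the number of plants behind an array nor the separation of the cultures is given, so p-values measure the spread between these samples.

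The signals were used as deposited, on a linear scale, and every test was made on their log2. Array medians ranged from 32.3 to 56.2. The 2 arrays of replicate 1 stood apart from the other 4. Their medians were 51 and 56.2, the summed signal of 6 leaf marker genes was 255704 to 296597 on them against 99712 to 136382 on replicates 2 and 3, and that of 7 genes of floral transition and spikelet was 1509 to 2109 against 16031 to 19089. Of the marker genes of leaf, root, shoot apex, floral transition and grain, none had an unadjusted p under 0.05 between the genotypes in limma, where 2.19% of all probe sets had one. That fit leaves out the replicate number, so a difference within the numbers could be missed. Of the leaf genes, *CAB2R* had 76051, 11577 and 14832 on the wild-type arrays and 82318, 24860 and 25811 on the *sd37* arrays. It was higher in *sd37* within each number, and every other leaf gene went both ways. Under a signal of 100 on every array lay 1 of 6 leaf, 3 of 7 root and 4 of 5 shoot apex genes. So did 3 of 7 floral and 4 of 7 grain genes. Because replicate 1 stood apart, each gene is given over all arrays, within each replicate number and across the numbers. The titles name seedlings and no part of the plant. In such mixed tissue, a change in the share of a cell type and a change of transcript within its cells cannot be told apart.

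The comparison of *sd37* with the wild type asked whether the mutation goes with other transcript levels of the hormone's receptors, regulators and enzymes. None of the 5 genes passed the threshold, set at 1.5-fold and at 0.05 for p after Benjamini-Hochberg adjustment, and their adjusted p in limma was 1 for each. The same held for all 57258 probe sets, of which 0 (0%) passed. At an unadjusted p under 0.05 with that fold there were 1249 (2.18%), and none of the 5 genes was among them. Without regard to fold the share was 2.19%, again with none of the 5. Under 7 of the 17 alternative settings, 1 or 2 of the 5 had an unadjusted p under 0.05, as given in the closing section. The share of all probe sets without regard to fold was taken only for this fit and with the replicate number as a block. The log2 difference was positive for 1 gene and negative for 4, with a median of -0.17, against a median of 0.024 over all probe sets.

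*BRI1* (gene LOC4324691), the receptor kinase that binds the hormone, had signals of 909, 757 and 984.3 on the wild-type arrays of replicates 1, 2 and 3 and of 637, 855 and 782 on the *sd37* arrays. The groups overlapped, since *sd37* replicate 2 lay above wild-type replicate 2. The log2 difference of *sd37* from the wild type was -0.22 (SE 0.24, n = 3 arrays each, 95% confidence interval -0.77 to 0.33). Within the numbers it was -0.51, 0.18 and -0.33, so *BRI1* had no single direction across the replicates. In an exact two-sided permutation test over the arrays p was 0.3, where 3 arrays against 3 cannot go below 0.1.

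*BAK1* (LOC4344785), also annotated as *SERK1*, encodes a receptor-like kinase that joins BRI1 in the receptor complex. Its signals were 2541, 2030 and 2094 on the wild-type arrays and 3066, 2717 and 2695 on the *sd37* arrays. All 3 *sd37* arrays lay above all 3 wild-type arrays, and *BAK1* was the only one of the 5 genes whose groups did not overlap, as was the case for 6.07% of all probe sets and 4.76% of those with a mean signal at or above the median. The mean signal was 2211 for wild type and 2821 for *sd37*, a ratio of 1.28 and a log2 difference of 0.35 (SE 0.20, 95% interval -0.11 to 0.82, unadjusted p = 0.120 in limma). The exact two-sided permutation test gave 0.1, the smallest p it allows.

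Within replicates 1, 2 and 3 the *BAK1* difference was 0.27, 0.42 and 0.36, the narrowest spread among the 5 genes. With the replicate number as a block in limma the interval was 0.11 to 0.59 and the unadjusted p was 0.0095, and the adjusted p was 0.701, where 0.0105% of all probe sets passed. The difference stayed between 0.27 and 0.45 under all 18 settings tried (the fit above and 17 alternatives), and the lowest adjusted p among them was 0.481. A higher signal in *sd37* in all 3 numbers was found in 14.1% of all probe sets.

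*BZR1* (LOC4343719), the transcription factor that carries the signal to target genes in the nucleus, had signals of 264, 234 and 256 on the wild-type arrays. In *sd37* they were 123, 122 and 248. The wild-type arrays were close together, and *sd37* was split, with replicates 1 and 2 below every wild-type array and replicate 3 within their range. The SD of the log2 signal was 0.091 in wild type and 0.59 in *sd37*. The log2 difference was -0.70 (SE 0.38, 95% interval -1.58 to 0.18, unadjusted p = 0.104 in limma, exact permutation p = 0.2), the largest of the 5 in size, and did not pass.

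Within the replicate numbers the *BZR1* difference was -1.11, -0.94 and -0.042. It was negative in all 3, as for 12.2% of all probe sets, although in replicate 3 the 2 arrays were nearly equal. The direction depends on the match by number, since *sd37* replicate 3 (248) lay above wild-type replicate 2 (234). The pairing check given below sets only replicate 1 apart, so the match of numbers 2 and 3 is not established. Without *sd37* replicate 3 the difference was -1.04, and without *sd37* replicate 2 it was -0.52. With the replicate block the interval was -1.33 to -0.060 (unadjusted p = 0.0355, adjusted p = 0.805 in limma). *BAK1* and *BZR1* were thus the 2 of 5 genes with an unadjusted p under 0.05 in the fit with the block, where 6.08% of all probe sets had one, and 7.86% of those with a mean signal at or above the median, as all 5 genes have.

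**Figure D1:**
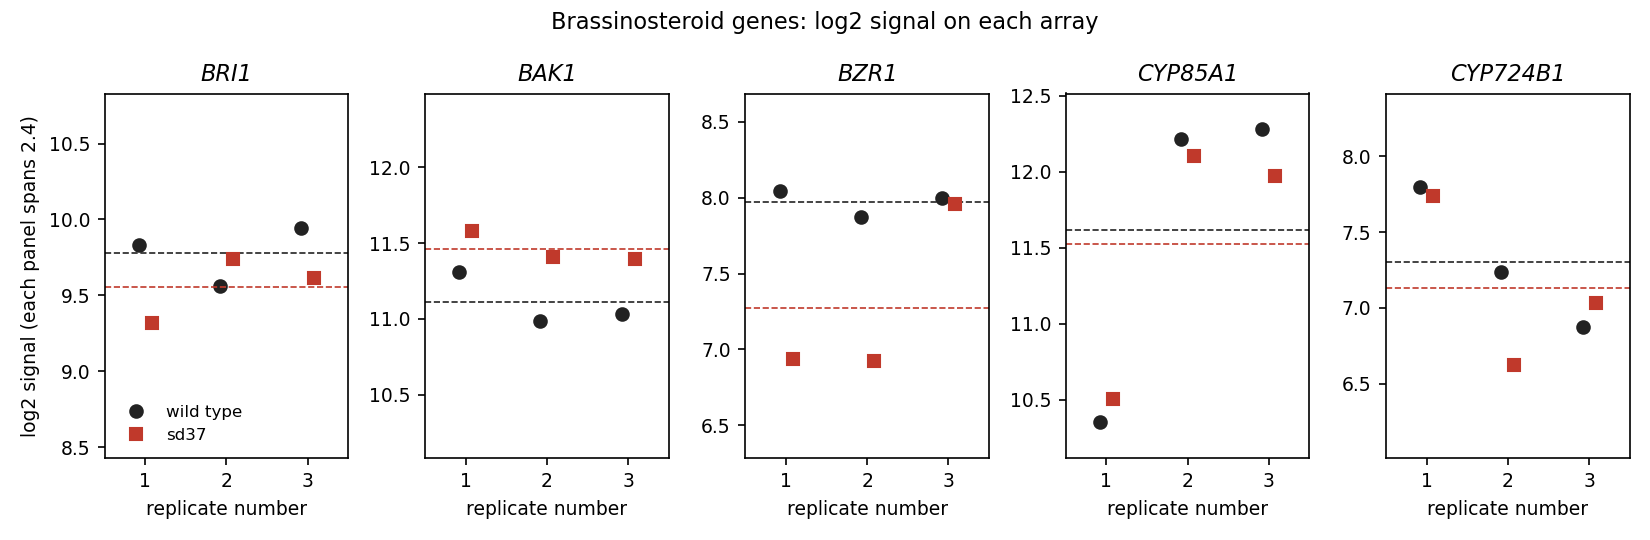
Log2 signal of each brassinosteroid gene (vertical axis, every panel spans 2.4 log2 units) on the 6 arrays, by replicate number (horizontal axis), with wild type as black circles, *sd37* as red squares and dashed lines for the genotype means. *BAK1* is higher in *sd37* in every replicate, *BZR1* is lower in replicates 1 and 2 and nearly equal in replicate 3, and *CYP85A1* is separated by replicate number and not by genotype.

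Among the synthesis genes, *CYP85A1* (LOC4333399) encodes the P450 oxidase of the late steps that lead to castasterone, the main active brassinosteroid of rice. Its signals were 1305, 4749 and 4980 on the wild-type arrays and 1452, 4393 and 4025 on the *sd37* arrays. Both arrays of replicate 1 lay far below the other 4, and within each number the genotypes lay close together. The log2 difference between the genotypes was -0.089 (SE 0.61, 95% interval -1.49 to 1.31, exact permutation p = 0.7). The interval reaches beyond a 2-fold change in either direction, so a change of that size was not detectable without the block.

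Within the replicate numbers the *CYP85A1* difference was 0.15, -0.11 and -0.31. With the replicate block the interval narrowed to -0.36 to 0.18 (unadjusted p = 0.478 in limma). Leaving out 1 array gave values from -0.72 (without wild-type replicate 1) to 0.42 (without *sd37* replicate 1), and the difference was also positive without wild-type replicate 2 (0.21) or replicate 3 (0.24). No direction between the genotypes can be given for this gene.

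*CYP724B1* (LOC4336116) encodes a P450 that hydroxylates the sterol side chain in an early step of synthesis, and in rice its mutant is the dwarf *d11*. Its probe set is of a kind that may also detect related transcripts. The signals were 223, 151 and 117 on the wild-type arrays and 213, 98.8 and 131 on the *sd37* arrays, with replicate 1 highest in both genotypes. The log2 difference was -0.17 (SE 0.44, 95% interval -1.18 to 0.84, exact permutation p = 0.7). Within the numbers it was -0.064, -0.61 and 0.16, and it was 0.079 without *sd37* replicate 2 and 0.074 without wild-type replicate 1.

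**Figure D2:**
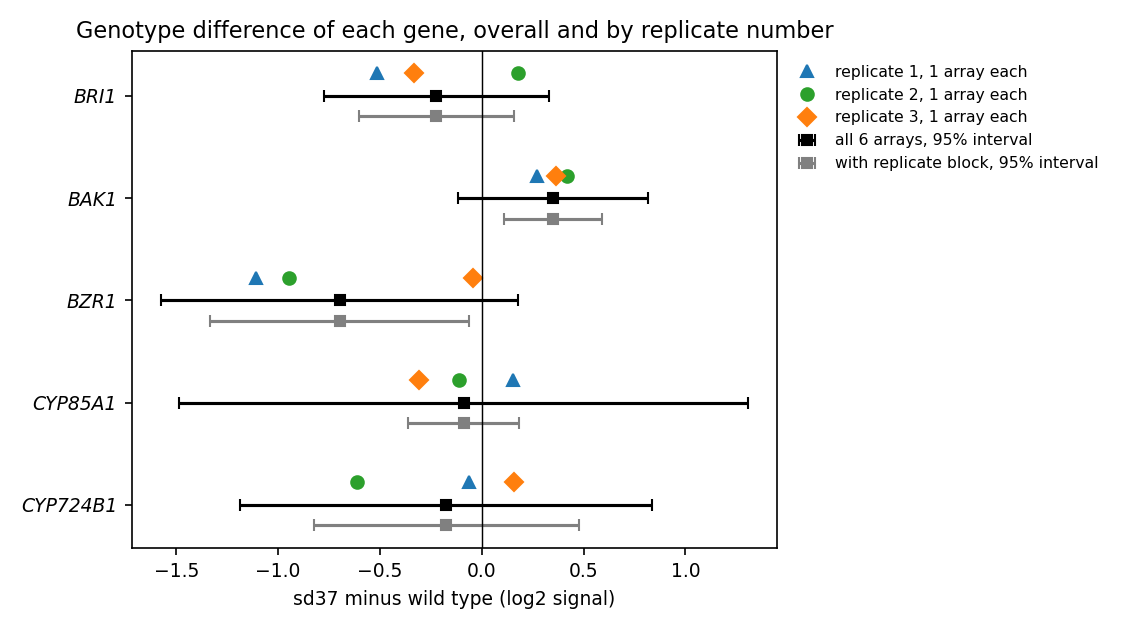
Log2 difference of *sd37* minus wild type (horizontal axis) for each of the 5 genes, within each replicate number (coloured points, 1 array of each genotype), over all 6 arrays (black square with 95% confidence interval) and with the replicate number as a block (grey square with 95% interval). The block narrows the interval of *CYP85A1* from -1.49 to 1.31 to -0.36 to 0.18, and only the blocked intervals of *BAK1* and *BZR1* leave out 0.

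The signals were then compared across the replicate numbers, as replicate 1 against replicates 2 and 3 with the genotype in the model. Replicate 1 was singled out because its arrays were known to stand apart, so these p-values describe the 6 arrays and are no independent evidence. What the replicate number stands for, a batch or a sowing, is not given. Of all probe sets 11012 (19.2%) passed an adjusted p under 0.05 and 1.5-fold, 5373 (9.38%) higher in replicate 1 and 5639 (9.85%) lower. Among probe sets with a mean signal at or above the median 34% passed. The median of all probe sets was 0.39 higher in replicate 1 on the log2 scale, -0.011 after quantile normalization and -0.27 after scaling every array to one median. The share of higher among all called probe sets was 48.8% as deposited, 42.3% after quantile normalization and 14.2% after scaling to one median.

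Of the 5 genes 1 passed, *CYP85A1*. Its mean signal was 1376 in replicate 1 and 4522 in replicates 2 and 3, 3.29-fold lower in replicate 1 (log2 difference -1.72, SE 0.12, adjusted p = 2.58e-05 in limma). The difference was -1.90 among wild-type arrays and -1.53 among *sd37* arrays, and it was -1.66 after quantile normalization and -2.39 after scaling to one median. Both arrays of replicate 1 lay below the other 4 arrays, a separation found in either direction for 44.9% of all probe sets and 61.6% of those with a mean signal at or above the median. On the same 2 arrays 4 of the 7 floral transition and spikelet genes passed as lower and none as higher. *MADS6*, *MADS7* and *MADS8* of that list lay under a signal of 100 on every array. Of the 6 leaf genes 5 passed as higher and none as lower. The summed signal of 7 root genes was 3168 to 3457 against 4063 to 5853, with 2 genes called in each direction. That of 7 grain genes was 2618 to 2712 against 3349 to 3724, with 1 called in each direction. That of 5 shoot apex genes was 1613.5 to 1800.7 against 926.5 to 1576.9, with 1 called as higher and none as lower. On every array the largest signal was that of *LSI1* among the root genes (1726 to 4063) and of *GLUA2* among the grain genes (1816 to 3395). It was that of *MADS18* among the floral genes (1227 to 12102) and of *FON1* among the shoot apex genes (865 to 1637). Each of these sums thus follows mostly 1 gene. The part of these markers in the *CYP85A1* result was not tested.

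*CYP724B1* was 0.82 higher in replicate 1 on the log2 scale (SE 0.27, adjusted p = 0.0618 in limma), with no overlap between replicate 1 and the others, and did not pass. After scaling to one median it was 0.15 (adjusted p = 0.753). This synthesis gene had its highest signals on the arrays where *CYP85A1* had its lowest. *BAK1* had 0.24 (SE 0.10, adjusted p = 0.136), which turned to -0.43 after scaling to one median (adjusted p = 0.0182, under 1.5-fold). *BRI1* had -0.14 (SE 0.17, adjusted p = 0.584) and passed only after that scaling, with -0.81 (adjusted p = 0.00768). *BZR1* had -0.19 (SE 0.32, adjusted p = 0.704), and -0.87 after that scaling (adjusted p = 0.0832).

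The difference of the genotype effect between replicate 1 and replicates 2 and 3 was tested as an interaction in limma, where the spread comes from replicates 2 and 3. It passed for 0 of 57258 probe sets, with 4676 (8.17%) at an unadjusted p under 0.05, and for none of the 5 genes at either level. For *CYP85A1* the interaction was 0.36 (SE 0.19, 95% interval -0.095 to 0.82, adjusted p = 0.656). For *BZR1* it was -0.61 (SE 0.64, adjusted p = 0.826), for *BRI1* -0.43 (SE 0.29, adjusted p = 0.728), and for *BAK1* and *CYP724B1* -0.12 and 0.16.

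The 5 genes varied by different amounts over the 6 arrays. The log2 range from the lowest to the highest array was 0.59 for *BAK1*, 0.63 for *BRI1*, 1.12 for *BZR1*, 1.17 for *CYP724B1* and 1.93 for *CYP85A1*. To find the most similar pattern, each gene was centred on its own mean log2 signal and the root mean square difference over the 6 arrays was taken, among 2074 other genes with a symbol and a mean signal at or above the median. The closest was *ARF15* for *CYP85A1* (0.087), with signals of 1897, 5779 and 6219 on the wild-type arrays and 1865, 5924 and 5521 on the *sd37* arrays. It was *SMAX1L* for *BRI1* (0.088), *ORR2* for *BAK1* (0.090), *CIGR2* for *CYP724B1* (0.105) and *HOX12* for *BZR1* (0.171). Among the 5 themselves the closest pair was *BRI1* and *BAK1* at 0.362.

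A wider list of brassinosteroid genes was formed from 55 further names. No entry was found under 27 of them, 6 have an entry without an annotated probe set, 1 (*SERK1*) is the same gene as *BAK1*, and 21 had a probe set, of which 18 have a mean signal at or above the median. Between the genotypes 0 of the 21 passed and 0 had an unadjusted p under 0.05 in limma. Under 7 of the 17 alternative settings, 1 to 3 of the 21 had one. The log2 difference was positive for 12 and negative for 9, with a median of 0.028. The groups did not overlap for 2 of the 21, *BKI1* and *MADS55*, against 6.07% of all probe sets. With the replicate block 2 of the 21, *MADS47* and *MADS55*, had an unadjusted p under 0.05, against 6.08% of all probe sets, and none passed.

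In synthesis and inactivation, *SMT1*, a sterol methyltransferase upstream of the hormone pathway, had a genotype difference of 0.086 (SE 0.22), and *CYP734A4*, one of the P450 enzymes that inactivate the hormone, had -0.40 (SE 0.65). The signals of *CYP734A4* were 614, 183 and 133 on the wild-type arrays and 367, 131 and 138 on the *sd37* arrays. Its difference turned to 0.26 without wild-type replicate 1. At the receptor, *BRL1*, a homologue of *BRI1*, lay between 21.4 and 71.5 on the 6 arrays with a difference of 0.15 (SE 0.75). *BKI1*, which in Arabidopsis holds the receptor kinase inactive, had signals of 37.5, 32.5 and 23.8 on the wild-type arrays and 12.1, 21.9 and 4.7 on the *sd37* arrays. Every *sd37* array lay below every wild-type array, and the log2 difference was -1.51 (SE 0.87, unadjusted p = 0.121 in limma, exact permutation p = 0.1). It was -0.79 with a floor of 16 and -0.92 without *sd37* replicate 3. With all probe sets sorted into 4 bins by mean signal, the median standard error of a difference was 1.08 and 1.09 in the lower 2 bins, where *BKI1* lies, and 0.287 in the highest.

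Among the GSK3-like kinases, the repressors of the pathway, *GSK4* had a difference of 0.12 (SE 0.21), and the 3 kinases with a probe set ranged from 0.028 to 0.12. *MADS55* and *MADS47*, MADS-box proteins that dampen brassinosteroid responses in rice, had the smallest p-values of the list with the block. *MADS55* had signals of 10554, 9919 and 9867 on the wild-type arrays and 11926, 12339 and 12681 on the *sd37* arrays, with no overlap. Its difference was 0.28 (SE 0.18, unadjusted p = 0.159 in limma). The SD of its log2 signal was 0.054 in wild type and 0.044 in *sd37*. With the block the unadjusted p was 0.0143 and the adjusted p 0.739 in limma. *MADS47* had 694, 263 and 154 on the wild-type arrays and 791, 576 and 389 on the *sd37* arrays. It was higher in *sd37* within each number, by 0.19, 1.13 and 1.34, and the groups overlapped, since wild-type replicate 1 lay above 2 of the *sd37* arrays. Its difference was 0.89 (SE 0.55, unadjusted p = 0.146; with the block unadjusted p = 0.0055, adjusted p = 0.604 in limma), and 0.39 without wild-type replicate 3 and 1.48 without wild-type replicate 1.

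Of the helix-loop-helix proteins, *IBH1*, a repressor of cell elongation, had a genotype difference of -0.080 (SE 0.22). *BU1*, a promoter of leaf bending, had -0.92 (SE 1.43) at signals of 81.9 and 12 in replicate 1 of the wild type and *sd37* and of 2.8 to 3.6 on the other 4 arrays. *TUD1*, a ubiquitin ligase that acts with the G protein subunit D1 in rice brassinosteroid responses, was higher in *sd37* within all 3 numbers (0.23, SE 0.20, unadjusted p = 0.290 in limma). Across the numbers, *sd37* replicate 2 (4443) lay below wild-type replicate 3 (4719). Over the list, *sd37* was higher in all 3 numbers for 5 genes and lower for 2, or 7 of 21, where 26.3% of all probe sets had 1 direction throughout.

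**Figure D3:**
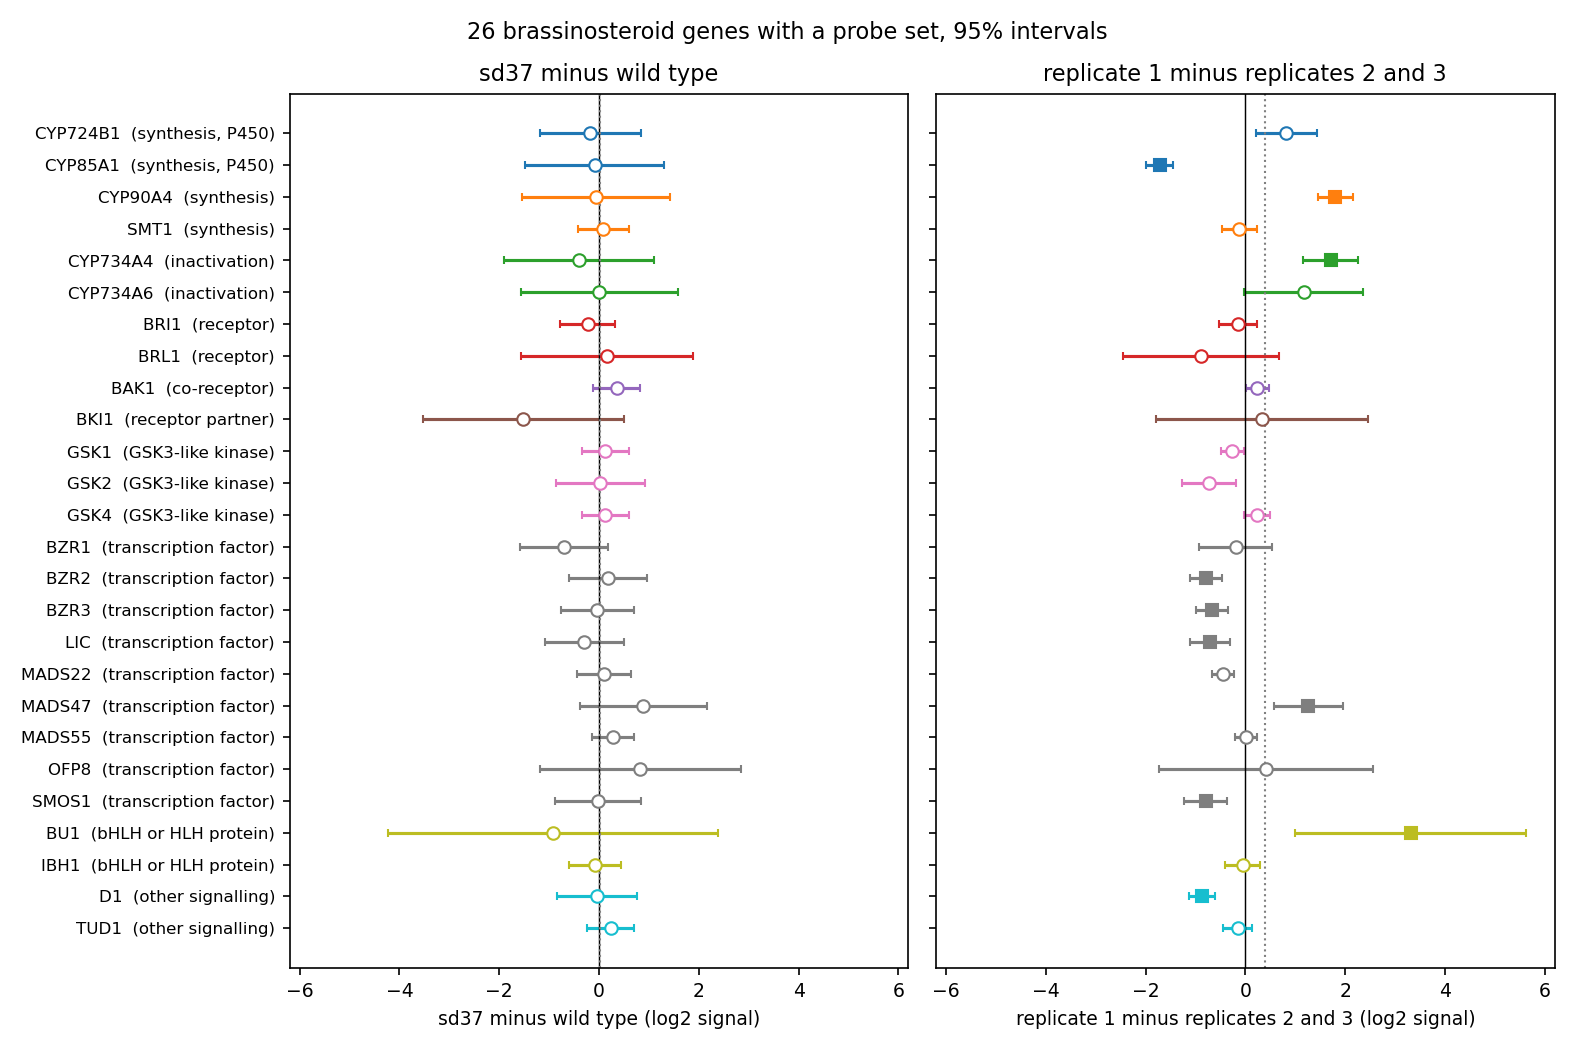
Log2 difference with 95% confidence interval (horizontal axes) for the 26 brassinosteroid genes with a probe set, ordered and coloured by role, for *sd37* minus wild type (left) and replicate 1 minus replicates 2 and 3 (right). Filled squares passed an adjusted p under 0.05 and 1.5-fold and open circles did not, and dotted lines mark the median of all probe sets (0.024 and 0.39); no gene passed between genotypes and 10 passed between replicate numbers.

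Between replicate 1 and replicates 2 and 3, 9 of the 21 passed (42.9%), 4 higher and 5 lower in replicate 1, with a list median of -0.12. The share was 19.2% of all probe sets and 34% of those with a mean signal at or above the median. The number was 5 without wild-type replicate 1 and also without *sd37* replicate 1. After quantile normalization 6 passed (3 higher and 3 lower), and after scaling to one median 14 passed (2 higher and 12 lower).

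The higher genes were 2 P450 genes and 2 regulators. *CYP90A4*, a synthesis P450, had signals of 1949, 552 and 603 on the wild-type arrays and 1946, 466 and 629 on the *sd37* arrays. Both arrays of replicate 1 lay far above the other 4 and close to each other, and the log2 difference was 1.80 (SE 0.16, adjusted p = 7.28e-05 in limma). *CYP734A4*, which acts in the opposite sense by inactivating the hormone, had 1.71 (SE 0.24, adjusted p = 0.00107). Both kept their direction and their call under quantile normalization, scaling to one median and a floor of 16 on the signal, and with any array left out. *MADS47* had 1.26 (SE 0.31, adjusted p = 0.0182) and did not pass after scaling to one median (0.59, adjusted p = 0.213), with a floor of 16 (adjusted p = 0.130), or without wild-type replicate 1 (0.74) or *sd37* replicate 3 (1.22). *BU1* had 3.31 (SE 1.02, adjusted p = 0.0484) and did not pass under any of the 9 other settings. Its value rests on the low signals of replicates 2 and 3 and was 1.18 with a floor of 16 and 1.92 to 4.70 with 1 array left out.

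The lower genes were signalling genes. *D1*, the alpha subunit of the heterotrimeric G protein, had signals of 1307, 2621 and 2578 on the wild-type arrays and 1416, 2365 and 2382 on the *sd37* arrays, with a log2 difference of -0.87 (SE 0.11, adjusted p = 0.000651 in limma). As with *CYP85A1*, replicate 1 was low in both genotypes, and the call of *D1* held under all 9 other settings. *BZR2* (-0.80, SE 0.14, adjusted p = 0.00386) and *BZR3* (-0.67, SE 0.14, adjusted p = 0.00826), relatives of *BZR1*, passed as deposited, and the adjusted p of *BZR2* was 0.0674 without wild-type replicate 1. *BZR3* did not pass after quantile normalization (-0.55, under 1.5-fold) or without *sd37* replicate 1. *SMOS1*, an AP2-type factor of organ size, had -0.80 (SE 0.19, adjusted p = 0.0164) and *LIC*, a zinc finger protein that opposes BZR1 in rice, had -0.71 (SE 0.18, adjusted p = 0.0205). Both lost their call in some settings, *SMOS1* without wild-type replicate 1 or 3 or *sd37* replicate 1, and *LIC* after quantile normalization, with a floor of 16 and without *sd37* replicate 1 or 3 or wild-type replicate 3. The summed leaf, floral and shoot apex markers differed in replicate 1 as given above, while the called root and grain genes went in both directions. The part of the markers in these differences was not tested.

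**Figure D4:**
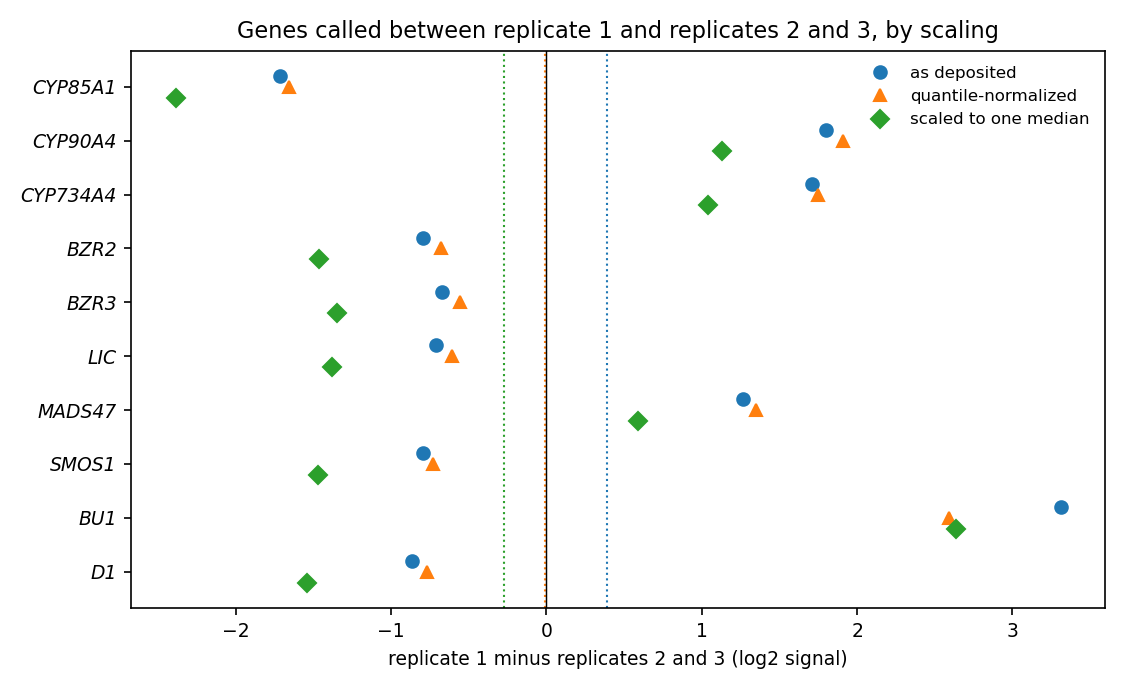
Log2 difference of replicate 1 minus replicates 2 and 3 (horizontal axis) for the 10 brassinosteroid genes that passed with the values as deposited, under 3 scalings of the arrays (blue circles as deposited, orange triangles after quantile normalization, green diamonds scaled to one median). Dotted lines give the median of all probe sets under each scaling (0.39, -0.011 and -0.27), and each of the 10 genes keeps its sign under all 3.

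Within the list, the interaction of genotype and replicate number had an unadjusted p under 0.05 for 1 of 21 genes, *SMT1* (-0.67, adjusted p = 0.58 in limma), against 8.17% of all probe sets. Its signals were 4067, 3657 and 3362 on the wild-type arrays and 3164, 4551 and 4156 on the *sd37* arrays. The interaction was not called for any gene of the list.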

How the data were processed

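Probe set intensity values were used as deposited by the authors. A service hybridized, scanned and normalized the arrays, with a summary algorithm not given in the sources used here. For extraction, the methods name a guanidinium isocyanate and phenol extraction and the labels a column kit, from 6 µg of total RNA for labelling. Of 57381 rows, 123 controls were left out. Values under 1 (1.77%) were set to 1, and log2 was taken. Detection calls are not part of the values, and precision is limited by the number of arrays.

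Each probe set was fitted in R 4.3.3 with limma 3.58.1 (lmFit and trended eBayes) over the 6 arrays, with Benjamini-Hochberg adjustment over 57258 probe sets. The fit was run on simulated arrays with changes larger than the genotype differences given here, and only at higher signals. That run does not show how well differences of the size seen here are detected. The SE and intervals given are those of this fit, which draws the variance of each probe set towards that of probe sets of similar signal. They can thus be wider than the spread of a gene's own arrays, as for *MADS55*. Mean signals are geometric means. Signal levels of different probe sets were compared only to choose probe sets and named genes, to sum the markers, and to filter or sort by mean signal.

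Genes were named through the platform table (22531 probe sets, of which 95 with more than 1 gene were left out) and RefSeq names of assembly ASM3414082v1. *GSK1*, *OFP8* and *IBH1* have 2, 2 and 3 probe sets. The ones not used had mean signals of 5.50 to 25.0 and genotype differences of opposite sign, and none had an unadjusted p under 0.05. The genes and lists were chosen with earlier results of these data known. From the wider list, the gene of smallest unadjusted p and of highest mean signal in each role was named, with any gene at an unadjusted p under 0.05, and for each of the 5 genes the gene nearest in pattern. *MADS22*, with -0.45 in replicate 1 (adjusted p = 0.0117), was under 1.5-fold. The other genes called in replicate 1 were named after their values were seen.

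Pairing by replicate number was checked with the deviations from the genotype means, which correlated across probe sets at 0.394, 0.134 and 0.160 for numbers 1, 2 and 3. All exceed 0.1, so a fit with the number as a block was added. Across the numbers, wild-type replicate 2 with *sd37* replicate 3 gave 0.164 and wild-type replicate 3 with *sd37* replicate 2 gave 0.130, so only replicate 1 is set apart. The other alternatives were a floor or pseudocount of 16, a signal filter, no trend, other scalings, replicate 1 as a batch or left out, and each array left out. An equal-variance analysis of variance without a block was also run between the genotypes in place of limma. The paper's methods name an analysis of variance with a false discovery rate.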

Additional observations from a re-analysis of the deposited data

How the results depend on the processing

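Between the genotypes, no brassinosteroid gene was called under any of the 17 alternatives. The number at an unadjusted p under 0.05 was less stable. Of the 5 genes it moved from 0 to 1 or 2 under 7 alternatives. For the 21 of the wider list it moved from 0 to 1, 2 or 3, also under 7. With the analysis of variance, which has no block, it was 1 of the 5 and 1 of the 21. *BRI1*, *BAK1* and *BZR1* kept their direction under all 17 alternatives. Leaving out 1 array gave -0.33 to -0.10 for *BRI1*, 0.29 to 0.45 for *BAK1*, -1.04 to -0.52 for *BZR1*, -0.72 to 0.42 for *CYP85A1* and -0.47 to 0.0793 for *CYP724B1*. The range was -0.0228 to 0.24 for *SMT1*, -0.88 to 0.26 for *CYP734A4*, -0.20 to 0.65 for *BRL1*, -0.19 to 0.0212 for *IBH1*, -1.71 to 0.65 for *BU1*, -2.03 to -0.92 for *BKI1*, 0.049 to 0.24 for *GSK4*, 0.39 to 1.48 for *MADS47*, 0.26 to 0.32 for *MADS55* and 0.13 to 0.35 for *TUD1*. With replicates 2 and 3 only, *IBH1* had 0.0844 and *BU1* 0.0115.

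The replicate block, which pairs arrays by number, changed no call of a brassinosteroid gene. The number of all probe sets called between the genotypes was 0 without it, 6 with it (0.0105%), 4 with it after quantile normalization (chosen after seeing the data), 10 with replicate 1 as a batch and 17 with replicates 2 and 3 only. At an unadjusted p with the fold, 1249 became 810 with a floor of 16, 326 with the signal filter, 1974 without the trend, 2566 with the batch, 2446 with the block, 2403 with the block after quantile normalization, 3131 with replicates 2 and 3 only and 917 to 2333 with 1 array left out (the highest without wild-type replicate 1).

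Between replicate 1 and replicates 2 and 3, scaling to one median turned *BAK1* to -0.43, added *BRI1* at -0.81 and gave 2 called genes of the 5 and 14 of the 21 of the wider list, whose alternatives were chosen after seeing the data. Leaving out 1 array gave -0.36 to 0.0747 for *BRI1*, -0.50 to 0.11 for *BZR1*, 1 called gene of the 5, 5 to 8 of the 21 and 7059 (without wild-type replicate 1) to 10916 of all probe sets. Where this left 1 array of replicate 1, that array is assumed to vary like the others. *CYP85A1* kept its call under all 9 alternatives (-1.90 to -1.53 with 1 array left out). The cause of these changes was not tested.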
